A study of Mus musculus with 9 samples.

Results

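The 7 genes described here encode secreted factors that act on blood and lymph vessels. They are the VEGF family members Vegfa, Vegfb, Vegfc and Pgf (placental growth factor), the angiopoietins Angpt1 and Angpt2, and the peptide hormone apelin (Apln). They were taken by gene symbol from a table of 30915 entries, and all 7 were found once each. The tissue was brown adipose tissue (BAT), the fat depot that burns fuel to make heat, from untreated wild-type C57Bl6J mouse embryos. There were 3 arrays each of E14.5, E15.5 and E16.5, where E stands for the embryonic day, and every one of the 9 held a separate preparation that pooled BAT from 3 embryos. Values are log2 expression, so a difference of 1 is a doubling, and because BAT was taken whole, fewer cells of a type and less RNA per cell cannot be told apart.

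VEGF ligands bind receptor tyrosine kinases on endothelium and drive vessel growth. VEGF-A acts through VEGFR1 (Flt1) and VEGFR2 (Kdr), VEGF-B and placental growth factor act through VEGFR1, and VEGF-C acts mainly through VEGFR3 (Flt4) on lymphatic vessels. Angiopoietin-1 activates the receptor Tie2 (Tek) and steadies vessels, whereas angiopoietin-2 is released by endothelium and often opposes it, loosening vessels so that they can be remodelled. Apelin signals through its receptor Aplnr and is made by the tip cells of growing vessels. Brown fat is among the most densely vascularised tissues, and VEGF-A from its adipocytes is known to sustain those vessels.

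The tissue label fitted its markers more clearly with each stage. Of 8 brown adipocyte markers, 8 were higher at E16.5 than at E14.5, as were 22.0% of all entries. Their summed linear signal was 6303 to 7313 at E14.5, 12828 to 13285 at E15.5 and 19714 to 20302 at E16.5. Ucp1, the uncoupling protein of brown fat heat production, averaged 4.46 ± 0.21 at E14.5, 5.52 ± 0.04 at E15.5 and 9.22 ± 0.19 at E16.5 (SD, n = 3 each). Its E14.5 level lay close to 4.38, the 95th percentile of the mean levels of 1459 olfactory and vomeronasal receptor genes, which mark the dim end of the scale here. E16.5 replicate 2 stood apart, with a median over all entries of 5.05 against 4.79 to 4.85 on the other arrays. The median entry moved by 0.14 between E14.5 and E16.5 and by 0.10 between E15.5 and E16.5 on the deposited scale, against 0.0068 and -0.00091 after quantile normalization. Among the brighter part of the table, entries whose mean reached the overall median, the second-day move was 0.02. The both-day move there was 5e-06, and each of the 7 genes but Pgf belonged to that part.

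Vegfb, Angpt1, Angpt2, Vegfa and Pgf changed over the 3 stages, while Vegfc and Apln did not pass the test. Vegfb was 2.02-fold higher and Angpt1 1.85-fold higher at E16.5 than at E14.5. Pgf fell over the same interval, Vegfa fell over the first day, and Angpt2 fell over the first day and rose over the second. By limma's F-test 5 of the 7 genes had an adjusted p at or under 0.05, where 35.1% of all entries did. The F-test call of Vegfa was lost on dropping replicate 1 of E14.5 (limma adjusted p = 0.0612), its replicate 2 (0.0581) or replicate 1 of E15.5 (0.0628). Apln was called without E16.5 replicate 2 (limma F-test adjusted p = 0.0365).

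Between E15.5 and E14.5, 1 of the 7 genes was higher and 2 were lower. Of all entries 20.3% were called there, 9.07% higher and 11.2% lower. Under quantile normalization or without E16.5 replicate 2 the split was 1 higher and 4 lower. In those fits 7726 and 9053 entries were called in all, against the 6275 behind the 20.3%. Between E16.5 and E15.5, 2 genes were higher and 0 lower by limma, where 19.7% of all entries were called, 11.2% higher and 8.46% lower. At an unadjusted p under 0.05 these counts were 3 and 1, where 31.2% of all entries passed in either direction. Quantile normalization or median centring gave 2 higher and 2 lower. They called 7596 and 7505 of all entries, against the 6076 behind the 19.7%. Between E16.5 and E14.5, 2 genes were higher and 1 was lower. Of all entries 39.4% were called there, 22.0% higher and 17.4% lower, and the 3 of 7 lay near that share. Quantile normalization or leaving out E16.5 replicate 2 gave 2 higher and 3 lower in that comparison, and median centring gave 2 higher and 4 lower. Called over all entries were 12766, 13055 and 13742 in that order, against the 12171 behind the 39.4%. A limma fit to the brighter entries alone called 6858 at E15.5 against E14.5 and 6732 at E16.5 against E15.5. At E16.5 against E14.5 it called 10244. Only entries with a mean at or above the overall median were in that fit. In each comparison a larger share of them was thus called than of all entries. For the ligands other than Pgf, the share of all entries is therefore a low reference.

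**Figure D1:**
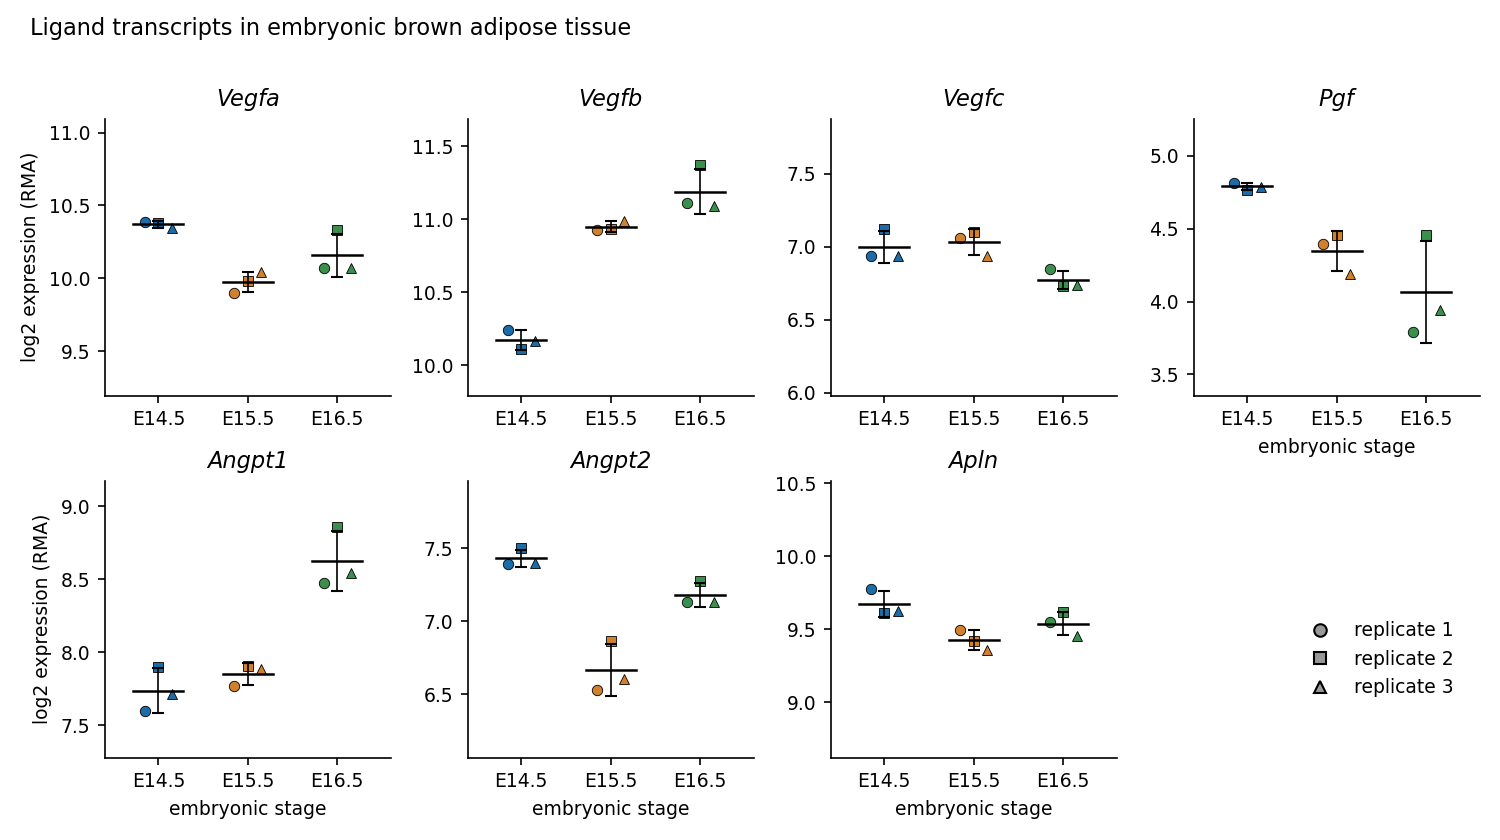
Log2 expression (RMA) of the 7 ligand genes on each of the 9 arrays, by embryonic stage. Horizontal lines are stage means, bars are SD (n = 3), symbols show the replicate number, and every panel spans the same range of log2 units. Vegfb steps up at E15.5, Angpt1 steps up at E16.5, and Angpt2 is lowest at E15.5.

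Vegfa, the principal growth factor of blood vessels, had log2 levels of 10.39, 10.38 and 10.35 at E14.5, of 9.90, 9.98 and 10.04 at E15.5, and of 10.07, 10.33 and 10.07 at E16.5. All E15.5 arrays lay below all E14.5 arrays, whereas E16.5 and E14.5 were separated only by a narrow gap, with E16.5 replicate 2 just below the E14.5 values. Vegfa was lower at E15.5 than at E14.5 by a log2 change of -0.39 ± 0.09 (SE, 95% interval -0.60 to -0.19, limma adjusted p = 0.00924). The second-day change was 0.18 ± 0.09 (limma adjusted p = 0.202), or 0.10 without E16.5 replicate 2 (limma adjusted p = 0.312). E16.5 and E14.5 differed by -0.21 ± 0.09 (limma adjusted p = 0.0871), which became -0.30 (limma adjusted p = 0.00284) without E16.5 replicate 2 and -0.32 (limma adjusted p = 0.00181) with quantile normalization. In order of mean level, E14.5 stood highest and E15.5 lowest, and E16.5 passed the test against neither in the fit to all arrays.

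Vegfb, which binds VEGFR1 and has been tied to fatty acid handling by endothelium, had levels of 10.24, 10.11 and 10.17 at E14.5, of 10.93, 10.93 and 10.99 at E15.5, and of 11.11, 11.37 and 11.09 at E16.5. No array of one stage overlapped those of another, and each stage lay above the one before. Vegfb rose by 0.78 ± 0.09 at E15.5 against E14.5, a 1.71-fold increase (limma adjusted p = 0.000111). At E16.5 against E15.5 it had 0.24 ± 0.09 (limma adjusted p = 0.104), and 0.15 without E16.5 replicate 2 (limma adjusted p = 0.114). The value of 0.24, which includes that array, passed among brighter entries alone (limma adjusted p = 0.0464) and with a mean-variance trend (0.0334). Over both days the log2 change was 1.02 ± 0.09 (limma adjusted p = 5.27e-06), or 0.93 without E16.5 replicate 2. Less the median of all entries it was 0.88, but the median of the brighter entries, to which Vegfb belonged, moved by only 5e-06.

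Vegfa and Vegfb therefore moved in opposite directions over the first day. On each array the log2 value of Vegfa less that of Vegfb was taken, and only the movement of this difference was read, since levels of different array features cannot be compared. It was lower by 1.17 at E15.5 than at E14.5 and then moved by -0.06 to E16.5. Over all 1680 assignments of the 9 arrays to the 3 stages, an exact permutation test of the F statistic gave p = 0.00714 (adjusted p = 0.0143 over 4 pairs of ligands, the smallest unadjusted p possible being 0.00357). The 2 promoters are shown because these genes moved in opposite directions over the first day. RefSeq promoter sequence (GRCm38.p6) was matched for 5 of the 7 genes, and the 250 bases before the outermost start are given for Vegfa (chr17:46032378-46032627, minus strand) and Vegfb (chr19:6987652-6987901, minus strand). Capitals mark GGGCGG, the GC box bound by Sp1-type factors, and AGGTCA, the hexamer of a nuclear receptor half-site, each on either strand.
Vegfa: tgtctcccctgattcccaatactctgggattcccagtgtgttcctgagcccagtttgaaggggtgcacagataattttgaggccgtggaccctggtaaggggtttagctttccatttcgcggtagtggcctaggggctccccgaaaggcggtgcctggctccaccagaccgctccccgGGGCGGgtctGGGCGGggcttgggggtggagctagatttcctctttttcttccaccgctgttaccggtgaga
Vegfb: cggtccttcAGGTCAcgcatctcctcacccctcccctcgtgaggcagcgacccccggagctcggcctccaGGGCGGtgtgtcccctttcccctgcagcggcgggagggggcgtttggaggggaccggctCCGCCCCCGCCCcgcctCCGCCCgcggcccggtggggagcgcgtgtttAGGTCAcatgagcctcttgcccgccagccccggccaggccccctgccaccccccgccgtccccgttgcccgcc
In these windows Vegfa held 2 GC boxes and Vegfb held 4, and 32.7% of 32851 promoter windows of the same length held at least 1. AGGTCA stood at -241 and -73 from the start of Vegfb (first base of the hexamer) and was not among the letters of the Vegfa window. It occurred in 14.0% of all windows. ACGTG and GCGTG, the core letters of hypoxia response elements, were also searched on both strands. ACGTG was in neither window and in 16.6% of all windows, and GCGTG occurred in the Vegfb window, once overlapping an AGGTCA, and in 28.2% of all windows. These matches are descriptions of the letters, not binding sites. Of 2 promoter windows matched for Vegfa only the outermost was read. Letters beyond these 250 bases were not searched, so an absence here holds for the window alone.

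Vegfc, the lymphatic growth factor, had 6.94, 7.12 and 6.94 at E14.5, 7.06, 7.11 and 6.94 at E15.5, and 6.85, 6.73 and 6.74 at E16.5. The E14.5 and E15.5 arrays overlapped fully, and the E16.5 arrays lay below both. No change passed the threshold, with -0.26 ± 0.09 at E16.5 against E15.5 (limma adjusted p = 0.0613) and -0.23 ± 0.09 at E16.5 against E14.5 (limma adjusted p = 0.0635). The 95% interval of the second-day change ran from -0.46 to -0.07. Both values passed under median centring (adjusted p = 0.0341 and 0.0383). Vegfc had only 7 distinct values on the 9 arrays, 3 arrays sharing the value 6.94 to every deposited digit.

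Pgf, a VEGFR1 ligand best known from placenta, lay near the dim end marked by the olfactory and vomeronasal receptor genes. Its levels were 4.82, 4.77 and 4.79 at E14.5, 4.39, 4.46 and 4.19 at E15.5, and 3.79, 4.46 and 3.94 at E16.5. E14.5 lay above both later stages, which overlapped through E16.5 replicate 2, the array with the raised median. The means were 4.79 at E14.5, 4.35 at E15.5 and 4.06 at E16.5, and both later ones lay under the 4.38 that bounds most olfactory and vomeronasal receptor genes. Pgf fell at E16.5 against E14.5 (limma adjusted p = 0.00259), and with 4.38 taken as the lowest readable level it was at least 1.33-fold lower. At E15.5 against E14.5 it did not pass (limma adjusted p = 0.0645), but did without E16.5 replicate 1 or 2 (limma adjusted p = 0.038 and 0.00222). No size is given for E16.5 against E15.5, where both means lay under that level (limma adjusted p = 0.228, and 0.00322 without E16.5 replicate 2).

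Angpt1, the ligand that activates Tie2, had 7.59, 7.90 and 7.71 at E14.5, 7.77, 7.90 and 7.89 at E15.5, and 8.48, 8.86 and 8.54 at E16.5. E14.5 and E15.5 overlapped, with a change of 0.12 ± 0.12 (95% interval -0.14 to 0.38, limma adjusted p = 0.643), and all E16.5 arrays lay above them. At E16.5 against E15.5 Angpt1 rose 1.71-fold (log2 change 0.77 ± 0.12, 95% interval 0.51 to 1.03, limma adjusted p = 0.000809). Without E16.5 replicate 2, which held the highest value, the change was 0.66. Over both days it was 0.89 ± 0.12 (limma adjusted p = 9.88e-05).

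Angpt2, the context-dependent Tie2 antagonist, had 7.39, 7.50 and 7.40 at E14.5, 6.53, 6.87 and 6.60 at E15.5, and 7.13, 7.28 and 7.13 at E16.5. The 3 stages did not overlap, with E15.5 lowest and E14.5 highest. Angpt2 was lower at E15.5 than at E14.5 by a log2 change of -0.77 ± 0.10 (limma adjusted p = 0.00022) and rose 1.43-fold at E16.5 against E15.5 (log2 change 0.52 ± 0.10, limma adjusted p = 0.00388). The second-day change less the first-day change was 1.28 ± 0.17 (limma adjusted p = 0.00224), and 5.21% of all entries passed that test, 2.79% higher and 2.41% lower. Angpt2 was the only one of the 7 genes to do so in the fit to all arrays, while Vegfa and Vegfb did too without E16.5 replicate 2 (0.49 and -0.63, limma adjusted p = 0.0121 and 0.00394). The 2 days share the E15.5 arrays. E16.5 and E14.5 differed by -0.25 ± 0.10 (limma adjusted p = 0.0725), a value that passed without E15.5 replicate 2 (limma adjusted p = 0.0489) or without E16.5 replicate 2 (-0.30, limma adjusted p = 0.0353).

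**Figure D2:**
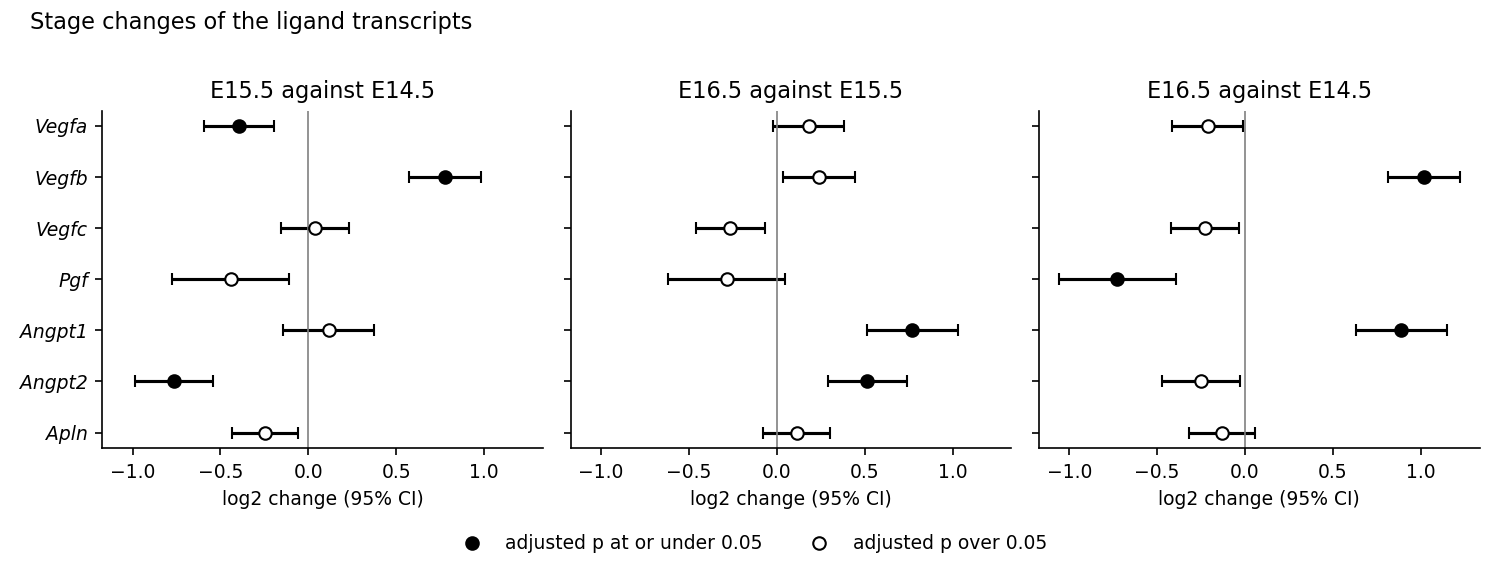
Log2 change of each ligand gene in the 3 stage comparisons, as points with 95% confidence intervals from the limma fit. Filled points have an adjusted p at or under 0.05, and the Pgf points are fitted values at the dim end. Vegfb and Angpt1 lie above 0 over both days, and Angpt2 lies at -0.77 over the first day and 0.52 over the second.

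The 2 angiopoietins also shifted relative to each other. The log2 difference of Angpt2 less Angpt1 was lower at E15.5 than at E14.5 by 0.88 and moved by a further -0.26 to E16.5, giving -1.14 over both days. The exact permutation test gave p = 0.00357, the smallest possible (adjusted p = 0.0143). It covers the 3 stages together and does not test the second-day step alone. When 1 array was left out, the first-day step of this pair was -0.96 to -0.83 and the second-day step -0.31 to -0.18. The pair of Vegfa and Vegfc moved by -0.43 and then 0.45 (exact permutation p = 0.0357, adjusted p = 0.0429). The shifts of this pair were -0.51 to -0.38 and then 0.34 to 0.53 when 1 array was left out. The difference of Vegfa and Pgf also passed (exact permutation p = 0.0429, adjusted p = 0.0429), but no size is read from it, because the Pgf means at both later stages lay under the dim level. Leaving out 1 array leaves 560 assignments. The adjusted exact permutation p of Vegfa and Vegfc was 0.0667, 0.0524 and 0.0714 when replicate 1, 2 or 3 of E14.5 was dropped, 0.075 and 0.0643 for replicate 1 or 2 of E15.5, and 0.0786 for replicate 3 of E16.5. That of Vegfa and Pgf was 0.0821 without any 1 of the E14.5 arrays or E16.5 replicate 1, 0.075 and 0.0643 without E15.5 replicate 1 or 2, and 0.0786 without E16.5 replicate 3.

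**Figure D3:**
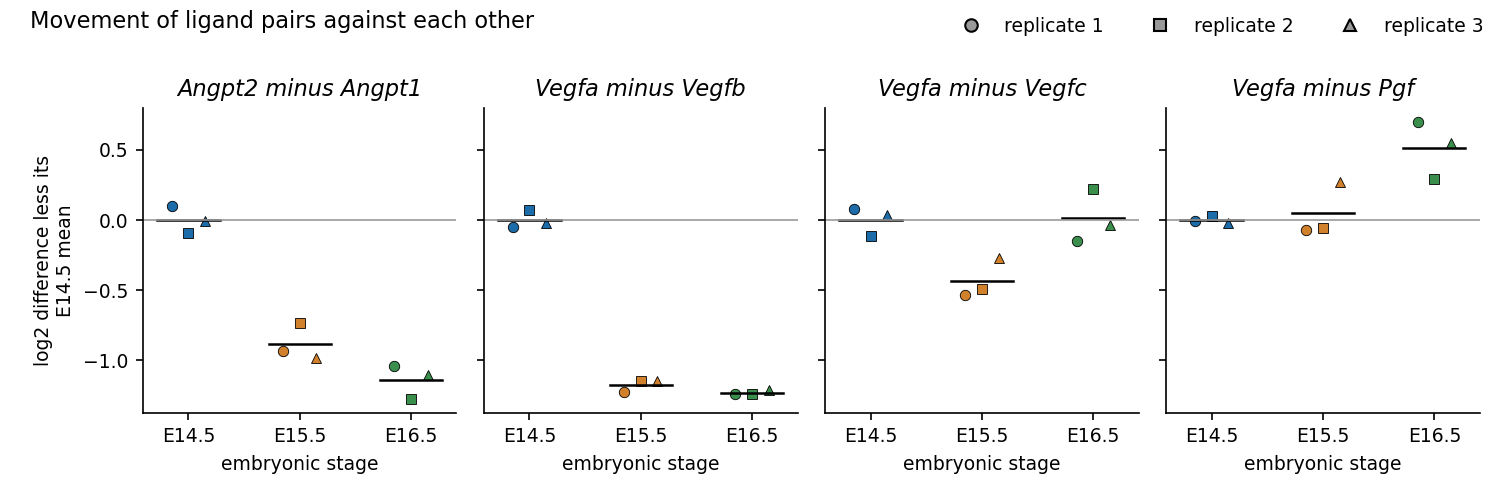
Log2 difference between the 2 ligands of a pair on each array, less the mean of that difference at E14.5, by embryonic stage. Horizontal lines are stage means and symbols show the replicate number (n = 3 arrays per stage). Angpt2 less Angpt1 and Vegfa less Vegfb lie below all E14.5 arrays at both later stages. The pair with Pgf is drawn from Pgf values at the dim end, so its size is not read.

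Apln had levels of 9.78, 9.61 and 9.63 at E14.5, of 9.50, 9.42 and 9.36 at E15.5, and of 9.55, 9.61 and 9.45 at E16.5. The E15.5 arrays lay below those of E14.5, while E16.5 overlapped both other stages. No change passed in the fit to all arrays. At E15.5 against E14.5 it had -0.25 ± 0.09 (limma adjusted p = 0.0705, and 0.0206 without E16.5 replicate 2), at E16.5 against E15.5 0.11 ± 0.09 (limma adjusted p = 0.384, with 0.07 lacking E16.5 replicate 2), and over both days -0.13 ± 0.09 (95% interval -0.32 to 0.06, limma adjusted p = 0.228).

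The other ligands of these families were measured too. Vegfd, listed under its older symbol Figf and like VEGF-C a VEGFR3 ligand, had 8.56, 8.53 and 8.39 at E14.5, 7.94, 7.96 and 8.03 at E15.5, and 7.54, 7.76 and 7.33 at E16.5. Each stage lay wholly below the one before. Figf fell over the first day (log2 change -0.52 ± 0.11, limma adjusted p = 0.0053) and over both days (-0.95), and its second-day change of -0.43 lost the call without E15.5 replicate 2 or 3 (limma adjusted p = 0.0555 and 0.0743). Angpt4 had 0.25 ± 0.13 over both days (limma adjusted p = 0.149). Without E16.5 replicate 1 Angpt4 had 0.37 (limma adjusted p = 0.0391), and without E16.5 replicate 2 it had 0.11 (limma adjusted p = 0.422). Apela, the second ligand of the apelin receptor, lay at the dim end, and none of its changes passed.

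Of 8 receptors and co-receptors, Tek and Nrp1 were lower at E15.5 than at E14.5 and none was higher, beside 11.2% and 9.07% of all entries. At E16.5 against E15.5, 1 was higher and 0 were lower by limma, beside 11.2% and 8.46% of all entries. The counts were the same at an unadjusted p under 0.05, which 31.2% of all entries passed. At E16.5 against E14.5, 2 were higher and 3 lower, beside 22.0% and 17.4% of all entries. The median change of the 8 over both days was -0.06, against 0.14 for all entries and 5e-06 for brighter ones. Tek, the angiopoietin receptor Tie2, had 9.64, 9.71 and 9.63 at E14.5, 9.19, 9.17 and 9.08 at E15.5, and 9.11, 9.38 and 9.07 at E16.5. Both later stages lay below E14.5 and overlapped each other. Tek fell by 0.51 on the log2 scale at E15.5 against E14.5 (SE 0.10, limma adjusted p = 0.0024) and by 0.47 at E16.5 against E14.5 (limma adjusted p = 0.0022).

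Nrp1, a neuropilin that presents VEGF-A to VEGFR2, had a log2 change of -0.40 ± 0.07 at E15.5 against E14.5 (limma adjusted p = 0.0020). Its both-day value of -0.26 lost the call without E14.5 replicate 1 (limma adjusted p = 0.0645). Nrp2, the neuropilin that partners VEGFR3, rose by 0.45 ± 0.09 over both days (limma adjusted p = 0.0028). Its second-day rise of 0.41 ended as a call without E15.5 replicate 1 (limma adjusted p = 0.0509).

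No change of the main VEGF-A receptors passed the test. Kdr averaged 10.06 ± 0.0028 at E14.5, 10.06 ± 0.066 at E15.5 and 10.06 ± 0.015 at E16.5 (SD, n = 3 each), and its both-day change was 0.0017 ± 0.073 (limma adjusted p = 0.986). Flt1 averaged 8.08 ± 0.03, 8.01 ± 0.06 and 7.96 ± 0.03 in the same order, a both-day change of -0.12 ± 0.07 (limma adjusted p = 0.214). Flt4 had -0.21 ± 0.08 over both days (limma adjusted p = 0.0482), a call that ended when any array but E16.5 replicate 2 was left out (limma adjusted p = 0.0592 to 0.159). Tie1, the partner of Tie2, had 0.30 ± 0.09 over both days (limma adjusted p = 0.0187, and 0.086 without E14.5 replicate 3). The apelin receptor Aplnr had 0.20 ± 0.09 over both days (limma adjusted p = 0.0865). Aplnr had 0.25 without E16.5 replicate 1 (limma adjusted p = 0.0495), 0.13 without E16.5 replicate 2 (limma adjusted p = 0.105) and 0.02 with quantile normalization (limma adjusted p = 0.849).

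**Figure D4:**
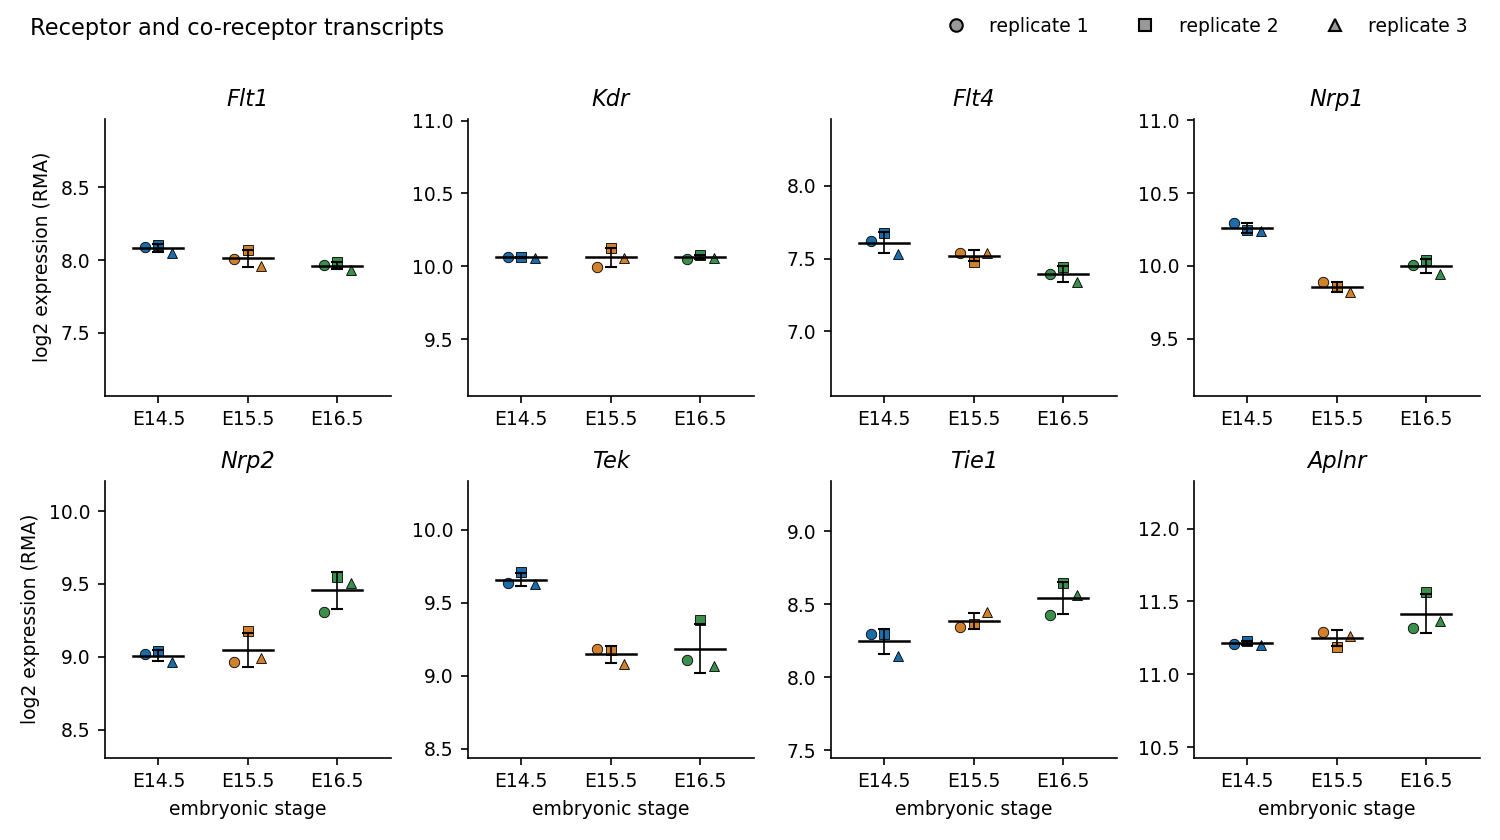
Log2 expression (RMA) of the 8 receptor and co-receptor genes on each array, by embryonic stage. Horizontal lines are stage means, bars are SD (n = 3), and symbols show the replicate number. Tek and Nrp1 are lower at E15.5 than at E14.5, and the Kdr means are 10.06 at each stage.

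Of 11 genes that process these ligands or shape their signalling, 1 was higher and 5 were lower at E16.5 than at E14.5. Of all entries 22.0% were higher and 17.4% lower there. The list had a median change of -0.30, against 0.14 for all entries and 5e-06 for brighter ones. Thbs1, thrombospondin-1, an inhibitor of angiogenesis, had a both-day change of -2.17, and Adamts3, the protease that activates VEGF-C, one of -1.76. Sulf1, a heparan sulfatase, had -1.49, and Hspg2, perlecan, had -0.95. At E15.5 against E14.5, 0 were higher and 5 lower by limma, beside 9.07% and 11.2% of all entries. At an unadjusted p under 0.05 the counts were 0 and 6, where 28.1% of all entries passed. The call of Hspg2 (-0.40) was lost on dropping replicate 1 of E14.5 (limma adjusted p = 0.0592), its replicate 2 (0.0561) or replicate 3 of E15.5 (0.0659).

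Known upstream regulators of Vegfa were set beside it. Of 13 genes of oxygen sensing and of the PGC-1 coactivator pathway, 7 were higher and 3 lower at E16.5 than at E14.5. Of all entries 22.0% were higher and 17.4% lower there. The list had a median change of 0.33, against 0.14 for all entries and 5e-06 for brighter ones. The coactivator Ppargc1a rose by 2.43 ± 0.09 over the first day and 0.78 over the second, Ppargc1b by 2.06 over the first day, and the estrogen-related receptor Esrra, a PGC-1 partner, by 1.28 and 0.93. Vegfa had -0.39 and 0.18 over the same days. The 3 regulators lower over both days were Hif3a (-0.46), Vhl (-0.44) and Arnt (-0.30). Higher and lower here describe the regulator transcripts, and whether they raise or lower Vegfa was not tested. Hif1a had -0.12 ± 0.08 over both days (limma adjusted p = 0.26). Epas1, which encodes HIF-2α, the oxygen-sensitive factor prominent in endothelium, had 8.12, 8.07 and 8.14 at E14.5, 8.31 on each E15.5 array, and 9.06, 9.15 and 9.29 at E16.5. It rose over the second day (0.85 ± 0.08, limma adjusted p = 4.2e-05), as Angpt1 did. Its first-day value of 0.20 passed only without E16.5 replicate 2 among the leave-one-out fits (limma adjusted p = 0.0467).

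Of 15 other hypoxia-responsive genes, 3 were higher and 2 lower at E15.5 than at E14.5, beside 9.07% and 11.2% of all entries. At E16.5 against E14.5, 6 were higher and 2 lower, beside 22.0% and 17.4%. The first-day counts were 5 and 3 without E16.5 replicate 2, where 9053 of all entries were called, against 6275 with all arrays. Pdk1, which limits pyruvate entry into the mitochondrion, rose by 2.20 over both days, and the mitophagy receptor Bnip3 by 2.08. The glucose transporter Slc2a1 and the collagen hydroxylase P4ha1 fell by 0.89 and 1.03 on the log2 scale. The median both-day change of the list was 0.14, beside 0.14 for all entries and 5e-06 for brighter ones.

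**Figure D5:**
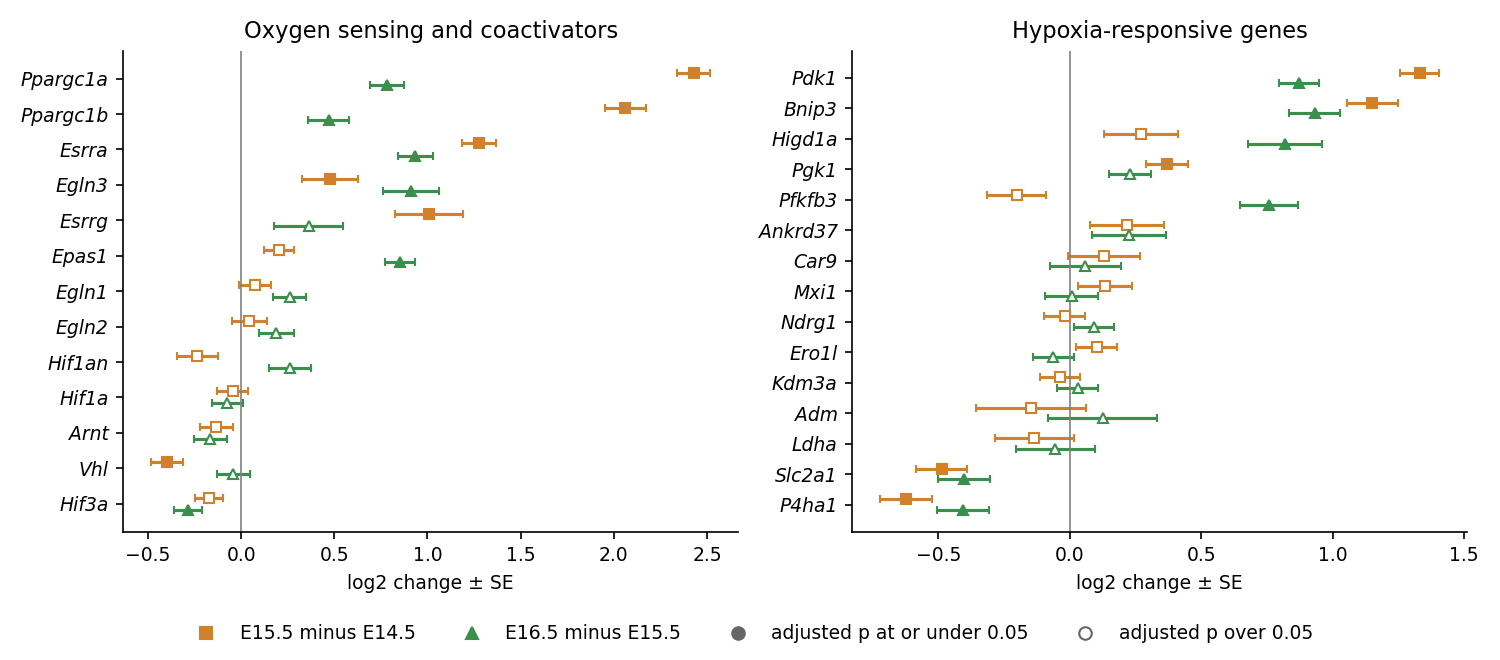
Log2 change ± SE of regulators (left) and of other hypoxia-responsive genes (right) over the first day, E15.5 minus E14.5 (squares), and the second day, E16.5 minus E15.5 (triangles). Filled symbols have an adjusted p at or under 0.05. Ppargc1a lies at 2.43 over the first day, Epas1 at 0.85 over the second, and hypoxia-responsive genes lie on both sides of 0.

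Markers of the cells that make or receive these ligands moved unevenly, and their part in the ligand changes was not tested. Of 16 endothelial markers, 4 were higher and 1 was lower at E16.5 than at E14.5, beside 22.0% and 17.4% of all entries. None of the 16 lay at the dim end. Over the first day 1 was higher and 2 lower, beside 9.07% and 11.2% of all entries. Over the second 2 were higher and 0 lower by limma, beside 11.2% and 8.46%. At an unadjusted p under 0.05 the second-day counts were 4 and 0, 4 of 16 beside 31.2% of all entries. Without E16.5 replicate 2 the first-day counts were 1 higher and 4 lower, and the both-day counts 4 higher and 3 lower. Called over all entries were then 9053 and 13055, against 6275 and 12171 with all arrays. Their summed linear signal was 12399 to 12739 at E14.5, 11643 to 11911 at E15.5 and 12257 to 13456 at E16.5. Cldn5, a tight junction protein, had a both-day change of 1.26, and Egfl7, a secreted endothelial factor, one of -0.43. All 3 measured lymphatic markers fell over the first day, with Prox1 at -1.26, Lyve1 at -0.63 and the podoplanin gene Pdpn at -1.30, and their summed signal was 1553 to 1837 at E14.5, 881 to 955 at E15.5 and 673 to 788 at E16.5. Lyve1 is also found on macrophages and Pdpn on mesenchymal cells. Of 8 macrophage markers 7 fell over the first day, when 11.2% of all entries were called lower.

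Of 10 mural cell markers, cells that also make angiopoietin-1, 3 were higher and 6 lower at E15.5 than at E14.5. Of all entries 9.07% were higher and 11.2% lower there. The pericyte gene Rgs5 had 1.59 and Acta2 had -0.71. Over the second day, when Angpt1 rose, 0 of the 10 passed by limma, and 2 were higher at an unadjusted p under 0.05, beside 31.2% of all entries. Without E16.5 replicate 2, 2 mural markers were higher and 1 was lower over that day. Called over all entries were then 7777, against 6076 with all arrays. The summed mural signal was 7690 to 8042 at E14.5, 5879 to 6199 at E15.5 and 5865 to 6257 at E16.5. Acta2 and Des were the brightest of the 10 at E14.5 (means 11.67 and 10.33) and weigh most in this sum. They averaged 10.96 and 9.57 at E15.5, while 3 markers rose, so the sum does not count mural cells. The cell source of these 2 transcripts was not tested. Over both days 22.0% of all entries were higher and 17.4% lower. Over the same interval 2 of 8 mesenchymal progenitor markers were higher and 6 lower. Their sum was 17485 to 18032, 13775 to 14550 and 10566 to 11356 at the 3 stages in order. For skeletal muscle 0 of 10 were higher and 9 lower, and the sum was 14256 to 14826, 7038 to 8673 and 6419 to 8561. Over both days 2 of 6 erythroid markers were higher and 3 lower, 2 of 5 cartilage markers were higher and 2 lower, and 0 of 6 Schwann cell and neuron markers were higher and 4 lower.

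The genes most like each changing ligand were sought by Pearson's r over the 9 arrays, among up to 7743 named genes that also changed. These correlations are descriptions over arrays that share a stage order. Closest to Vegfb were Arxes1 (r = 0.998), the mitochondrial ribosomal protein gene Mrps5 (0.998) and Pcgf5 (0.997). Angpt1 was followed by the transcription factor gene Klf9 (0.991), Sfxn4 (0.990) and Sec22a (0.989). Angpt2 was followed by Fosl2, which encodes an AP-1 subunit (0.986), Ntn5 (0.974) and Rab30 (0.972). For Vegfa they were Ramp3 (0.972), Cadm4 (0.968) and Ccser1 (0.967), and for Pgf Tirap (0.993), B9d1 (0.992) and Fbf1 (0.991).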

How the data were processed

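Total RNA was labelled with the WT PLUS kit, per the labels' protocols, and hybridised to MoGene-2_0-st arrays. The authors deposited log2 values, and the submitters' processing notes name RMA and Partek 7.0. The sources used here do not give the annotation, the build or how probes were summarised per symbol. RMA subtracts background and compresses dim signal, so changes of dim genes are understated, and no detection calls were used.

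limma 3.58.1 (R 4.3.3) was fitted to all 30915 entries and 9 arrays with stage as the only term (6 residual and 4.59 prior degrees of freedom), two-sided, with Benjamini-Hochberg adjustment over all entries of a contrast and a threshold of 0.05. It was tested on simulated data with independent noise, which held no array-wide shift like that of E16.5 replicate 2. Pairs of ligands were compared by an exact permutation test. Samples of one replicate number did not deviate together (r between -0.13 and 0.10). The number of arrays limits the precision. Named were the 7 genes, all receptors and other family ligands, and up to 4 genes of each other list by smallest F-test p. The 3 most correlated genes for each changing ligand were also named. Hif1a and the 3 falling regulators were added to these. The members and lists were chosen with earlier results of these data known. Alternatives covered scaling, dim entries, variance model, array weights, stages in the fit, a replicate block and leaving out each array.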

Additional observations from a re-analysis of the deposited data

Results flagged for a closer look

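Angpt2 had a second-day change that differed from its first-day change by 1.28 on the log2 scale (limma adjusted p = 0.00224). It fell on the first day and rose on the second, and it did so without any 1 of the 9 arrays (1.14 to 1.48, limma adjusted p at most 0.0221).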

How the results depend on the processing

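None of the 142 alternative values of the 9 called changes of single ligand genes lost its call or its direction, and 12 of the 19 uncalled ones were called under at least 1 alternative. Of 7 genes, those lower at E15.5 than at E14.5 numbered 4 instead of 2 with quantile normalization, with array weights and with these 2 stages alone, and 2 to 4 when leaving out 1 array. Those lower at E16.5 than at E15.5 numbered 2 instead of 0 with quantile normalization or median centring and 1 among brighter entries or with array weights, and 0 to 1 when leaving out 1 array. Those lower at E16.5 than at E14.5 numbered 3 instead of 1 with quantile normalization, among brighter entries or with array weights, 4 with median centring, 2 with the mean-variance trend, 2 with the replicate block, and 1 to 3 when leaving out 1 array. Genes with a higher second-day than first-day change numbered 3 instead of 1 with quantile normalization, median centring, brighter entries or array weights, 2 with the trend, and 1 to 2 when leaving out 1 array. With a lower one they numbered 1 instead of 0 under each of these 5 settings, and 0 to 1 when leaving out 1 array. Other family ligands called over the stages numbered 2 instead of 1 with quantile normalization, and receptors 5 instead of 3 with median centring or the trend. Pairs of ligands numbered 2 to 4 when leaving out 1 array, against 4. Calls over all entries shifted too. At E15.5 against E14.5 they rose from 6275 to 7726 with quantile normalization, 10026 with array weights and 9269 with these 2 stages alone. The replicate block gave Angpt2 at E16.5 against E14.5 a limma adjusted p of 0.047 and changed no other call of the 7 genes by stage comparison; the numbers did not pair the arrays. Among brighter entries fewer genes are tested; the cause of the other shifts was not tested. Dimness limits Pgf.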

Other observations

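Each ligand was also set against the mean of 16 endothelial markers on the same array, a measure chosen after seeing the data and given without a test. Relative to that mean, Angpt1 changed by 0.62 over the second day, against 0.77 as deposited, and Angpt2 by 0.36, against 0.52. Over both days Vegfb changed by 0.91, against 1.02, Vegfa by -0.32, against -0.21, and Vegfc by -0.33, against -0.23. The marker mean itself was 8.87 to 8.92 at E14.5, 8.85 to 8.86 at E15.5 and 8.94 to 9.12 at E16.5.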
